A study of Mus musculus with 12 samples.

Results

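The 10 genes described here encode carriers that move amino acids across the plasma membrane, and they are 10 of the 20778 genes in the count table. The set was chosen by function with earlier results of these data known, and Slc6a19 was picked by its fall with αCD3 in these same libraries. The cells were CD8 T cells from the spleens of C57BL/6 mice, whose age the labels give as 6 weeks, separated with magnetic beads and kept in culture for 6 hours. They were left untreated (Naïve) or given an antibody that binds the CD3 signalling chains of the TCR, the T cell receptor (αCD3, 1 µg/ml), interferon gamma (IFNγ, 70 ng/ml), or bacterial lipopolysaccharide, the ligand of Toll-like receptor 4 (LPS, 1 µg/ml), with 3 mRNA libraries in each of the 4 groups. The unit of the αCD3 and LPS doses and the age of the mice differ between sources, so both are uncertain. The labels do not say whether replicates came from separate mice, and p-values therefore measure the spread between libraries, which may be technical.

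Amino acid carriers set how much leucine, glutamine, arginine and cystine a cell can take up, and lymphocytes are known to raise several of them when they leave rest and begin to grow. Slc3a2 encodes 4F2hc, a heavy chain with no transport activity of its own that brings light chains to the cell surface. Slc7a5 (LAT1, large neutral amino acids such as leucine), Slc7a6 (y+LAT2, exchange of cationic for neutral amino acids) and Slc7a11 (xCT, uptake of cystine against glutamate) are such light chains. Slc7a1 (CAT1) carries arginine and lysine without a partner. Slc1a5 (ASCT2), Slc1a4 (ASCT1), Slc38a1 (SNAT1) and Slc38a2 (SNAT2) are sodium-dependent carriers of small neutral amino acids, glutamine among them for most. Slc6a19 (B0AT1) is best known as the neutral amino acid carrier of kidney and gut epithelium.

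The libraries held 10196248 to 27610175 estimated counts, and αCD3 replicate 1 was the deepest. Levels are given as CPM, a gene's counts relative to the library's total after trimmed mean (TMM) scaling. The identity of the cells was checked against marker genes. The 9 CD8 T cell markers found in the table, of 10 looked for, were all detected in every group and summed to 1563 to 1714 CPM in Naïve, 2139 to 2301 in αCD3, 1697 to 1767 in IFNγ and 1336 to 1520 in LPS. The 11 B cell markers were also all detected and summed to more than the CD8 T cell list in every group, at 3635 to 3980 CPM in Naïve, 2596 to 2972 in αCD3, 3032 to 3135 in IFNγ and 2143 to 3218 in LPS, so the labelled cell type does not describe all the RNA. The 14 myeloid markers summed to 591 to 1149 CPM in Naïve, 479 to 916 in αCD3, 664 to 1291 in IFNγ and 547 to 786 in LPS, with replicate 1 the lowest in every group. In these mixed libraries a change in a transporter's RNA per cell and a change in the share of the cells that carry it cannot be told apart, and the part of other cell types in the results below was not tested.

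Most of the 9 transporters counted here rose with αCD3 and with LPS, and 1 passed the test with IFNγ. A gene was called when its adjusted p was under 0.05 in edgeR's quasi-likelihood test over all 12122 tested genes, and counts of members leave out Slc6a19 because of how it was picked. With αCD3, 7 of the 9 rose against Naïve and the other 2, Slc38a2 and Slc7a11, did not pass the test, where 22.9% of all tested genes were called higher and 15.7% lower. With LPS, 6 of the 9 rose and Slc1a5, Slc38a1 and Slc38a2 did not pass, against a background of 26.9% higher and 22.3% lower. With IFNγ, 1 of the 9 (Slc38a1) fell and the other 8 did not pass, against 8.17% higher and 4.27% lower. The median log2 fold change of the 9 was 0.54 with αCD3, -0.06 with IFNγ and 0.68 with LPS, and that of all tested genes was -0.02, -0.02 and -0.01. These comparisons share the Naïve libraries. With the replicate number as a block, 7 rose and 1 fell with αCD3, 1 rose and 2 fell with IFNγ, and 7 rose and 1 fell with LPS. The block raised the background as well, to 28.1% higher and 24.2% lower with αCD3, 13.5% and 11.4% with IFNγ and 31% and 28.4% with LPS.

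**Figure D1:**
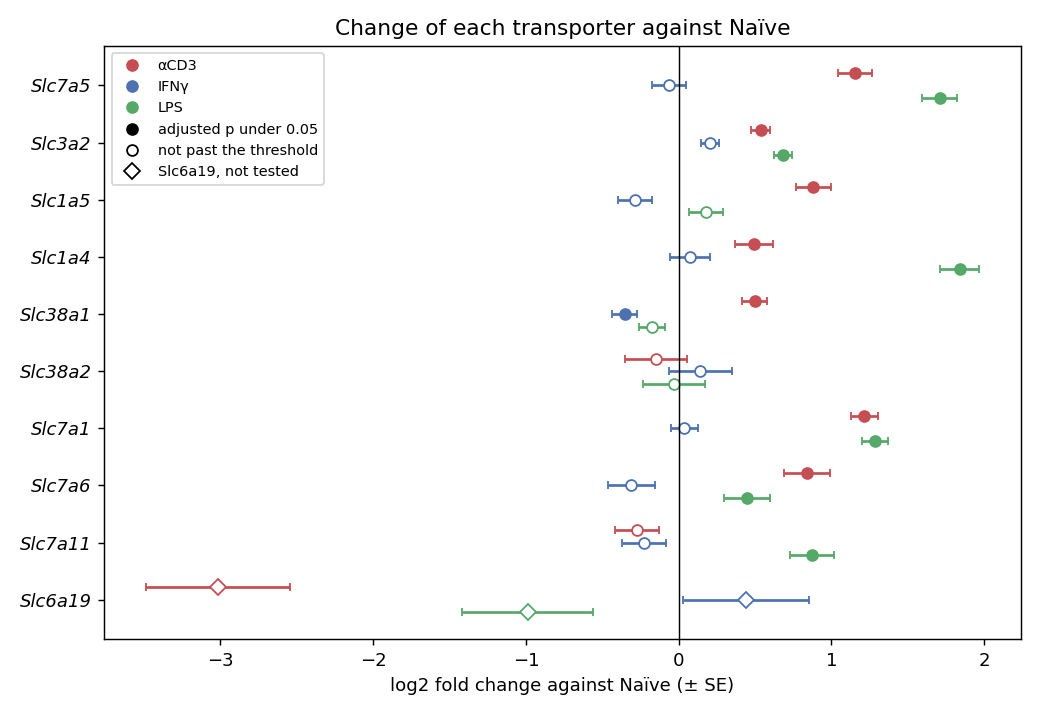
Log2 fold change against Naïve (horizontal axis, bars are ± SE of the fit) of the 10 transporters under αCD3 (red), IFNγ (blue) and LPS (green), 3 libraries a group. Filled points passed an adjusted p of 0.05, open circles did not, and diamonds mark Slc6a19, which was not tested here. Slc7a5, Slc7a1 and Slc3a2 lie to the right under both αCD3 and LPS, Slc1a5 and Slc38a1 are filled and to the right under αCD3 alone, and Slc1a4 and Slc7a11 lie further right under LPS than under αCD3.

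The treatments also differed from each other. In αCD3 against IFNγ, 7 of the 9 were higher with αCD3, where 21.4% of tested genes were called higher and 15.8% lower, and the median of the 9 was 0.85 against -0.03 for all genes. In IFNγ against LPS, 7 of the 9 were lower with IFNγ, where 18% were called higher and 22.4% lower, and the median was -0.76 against 0.04. In αCD3 against LPS the 9 split. Slc1a5 and Slc38a1 were higher with αCD3, Slc7a5, Slc1a4 and Slc7a11 were higher with LPS, and the other 4 did not pass, against a background of 9.64% higher and 9.76% lower with αCD3. The median of the 9 was then -0.12 and that of all genes -0.01.

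Levels of different genes can be compared only per length. Divided by the length of the longest annotated coding transcript, the Naïve levels ran from 95.8 ± 8.64 CPM per kb for Slc1a5 and 73.9 ± 2.70 for Slc3a2 through 61.6 ± 11.2 for Slc38a2, 27.2 ± 2.04 for Slc7a5, 23.5 ± 0.922 for Slc38a1 and 13.7 ± 0.460 for Slc7a1 to 7.40 ± 0.909 for Slc7a6, 6.84 ± 1.59 for Slc7a11, 6.15 ± 2.10 for Slc6a19 and 1.78 ± 0.125 for Slc1a4 (SD, n = 3). The intervals of Slc3a2 and Slc38a2 overlapped within 1 SD, and so did those of Slc7a6, Slc7a11 and Slc6a19. Slc7a5 moved from the fourth place in Naïve and IFNγ to the third in αCD3 and LPS on this scale, at 60.5 ± 6.10 and 88.9 ± 6.08 CPM per kb, where Slc38a2 was at 55.5 ± 10.9 and 60.3 ± 13.1. In αCD3 those 2 genes lay within 1 SD of each other. The isoform that these cells use was not measured, and with the median coding transcript length the order changed.

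**Figure D2:**
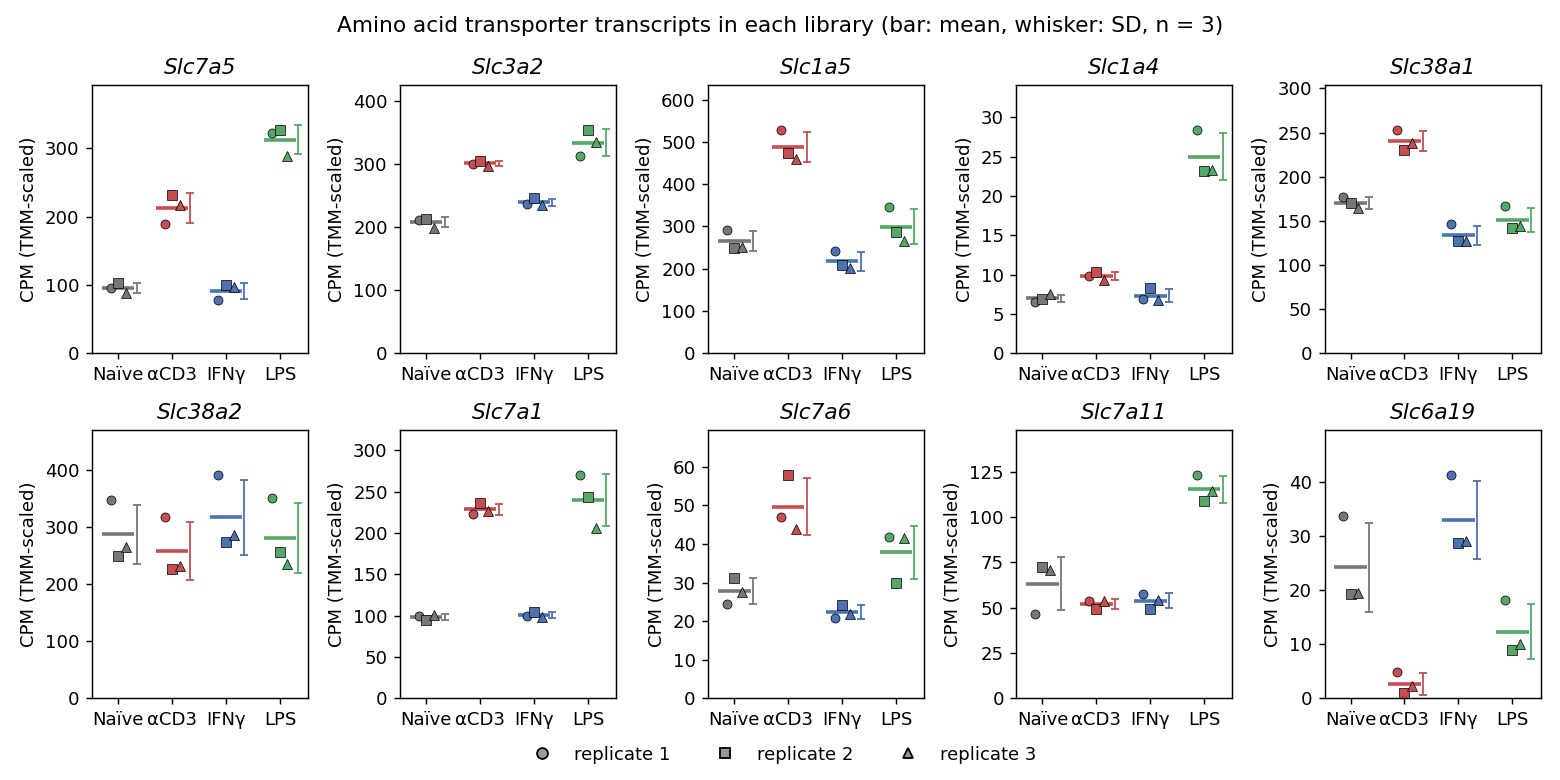
TMM-scaled CPM (vertical axis) of each of the 10 transporters in the 12 libraries, 1 panel a gene with its own axis. Points are libraries by group, and the bars give the group mean ± SD of 3 libraries. The αCD3 and LPS libraries of Slc7a5 and Slc7a1 all stand above the Naïve and IFNγ libraries, Slc38a2 overlaps in all 4 groups, and the αCD3 libraries of Slc6a19 are the lowest of its panel.

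Slc7a5 (GRCm38/mm10, chr8:121881150-121907694, minus strand), the leucine carrier, was at 95.7, 103 and 88.5 CPM in the Naïve libraries and 77.9, 99.9 and 97.2 in IFNγ. It was at 189.7, 232 and 217 in αCD3 and 322, 327 and 288 in LPS. All αCD3 libraries were above all Naïve and IFNγ libraries, and all LPS libraries were above all αCD3 libraries. The log2 fold change against Naïve was 1.15 ± 0.11 (SE) with αCD3 (adjusted p = 2.98e-05) and 1.71 ± 0.11 with LPS (adjusted p = 2.39e-06). αCD3 against LPS gave -0.55 ± 0.11 (adjusted p = 0.00537). With IFNγ it was -0.06 ± 0.11 (adjusted p = 0.778).

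Slc3a2 (chr19:8706882-8723369, minus strand), the heavy chain, moved less. It was at 211, 213 and 199 CPM in Naïve, 301, 306 and 298 in αCD3, 237, 246 and 235 in IFNγ and 312, 355 and 336 in LPS. Both the αCD3 and the LPS libraries were above every Naïve library, and αCD3 and LPS stood close to each other. It rose by 0.54 ± 0.06 (log2) with αCD3 (adjusted p = 8.18e-05) and by 0.68 ± 0.06 with LPS (adjusted p = 1.09e-05). The IFNγ libraries were also above all Naïve libraries, by 0.20 ± 0.06 with an adjusted p of 0.0501, which became 0.00907 with the replicate block, 0.0150 with DESeq2 and 0.0484 with limma-voom and ranged from 0.00907 to 0.438 over the alternatives. For αCD3 against LPS the log2 fold change was -0.15 ± 0.06 (adjusted p = 0.109, 0.0299 with the block, 0.0429 without LPS replicate 1, and up to 0.577 over the alternatives).

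The light chain rose more than the heavy chain. The ratio of Slc7a5 to Slc3a2 counts within a library, which does not depend on scaling, was 0.453, 0.483 and 0.445 in Naïve and 0.329, 0.406 and 0.413 in IFNγ. It was 0.630, 0.759 and 0.730 in αCD3 and 1.03, 0.923 and 0.859 in LPS. The 4 groups did not overlap. Their means were 0.383 ± 0.0469 in IFNγ, 0.460 ± 0.0200 in Naïve, 0.706 ± 0.0675 in αCD3 and 0.938 ± 0.0882 in LPS (SD, n = 3). A test across the 4 groups over all 15400 divisions of the libraries gave p = 6.49e-05 on the log2 ratio, the smallest that this exact permutation test can give, and 95.3% of the variance lay between groups. This test exchanged libraries freely and took no account of the replicate numbers, within each of which the order from low to high was IFNγ, Naïve, αCD3 and LPS. Counts are not divided by transcript length here, so the ratio is not one of molecules.

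**Figure D3:**
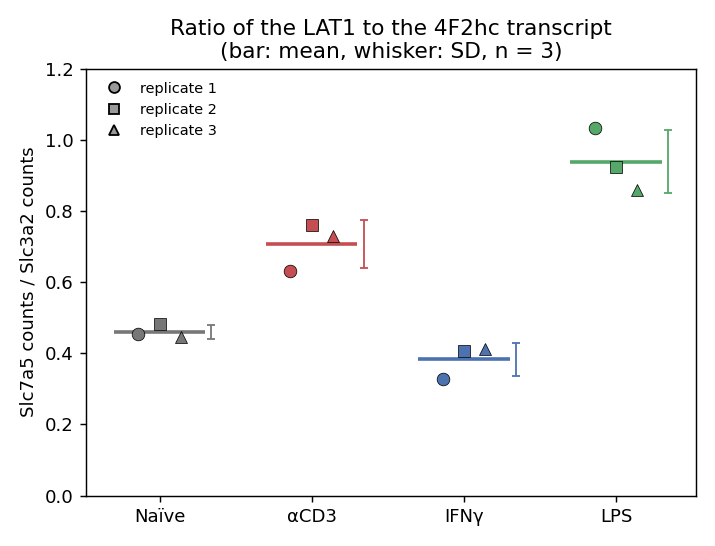
Ratio of Slc7a5 to Slc3a2 estimated counts within each library (vertical axis) by group, points are the 12 libraries and bars the mean ± SD of 3. The IFNγ libraries lie between 0.329 and 0.413, the Naïve between 0.445 and 0.483, the αCD3 between 0.630 and 0.759 and the LPS between 0.859 and 1.03.

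Slc7a1 (chr5:148327410-148399904, minus strand), the arginine and lysine carrier, had the profile most like that of Slc7a5 among the members, with a Pearson r of 0.960 on log2 CPM across the 12 libraries, which share their groups and depth. It was at 99.9, 94.6 and 101 CPM in Naïve and 99.9, 105 and 98.6 in IFNγ. It was at 223, 236 and 226 in αCD3 and 270.4, 243 and 207 in LPS. The treated groups αCD3 and LPS overlapped each other and neither overlapped Naïve or IFNγ. Against Naïve its log2 fold change was 1.22 ± 0.09 with αCD3 (adjusted p = 7.35e-06), 1.29 ± 0.09 with LPS (adjusted p = 2.72e-06) and 0.04 ± 0.09 with IFNγ (adjusted p = 0.836). Between αCD3 and LPS it was -0.07 ± 0.09 (adjusted p = 0.613), and 0.03 with library size as the only scaling.

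Slc7a6 (chr8:106168857-106198706, plus strand), the exchanger of cationic and neutral amino acids, was at 24.5, 31.3 and 27.5 CPM in Naïve, 47.0, 57.9 and 44.0 in αCD3, 20.8, 24.3 and 21.8 in IFNγ and 41.8, 30.0 and 41.7 in LPS. The αCD3 libraries were above all Naïve libraries, while LPS replicate 2 lay within the Naïve range. It rose with αCD3 by 0.84 ± 0.15 (log2, adjusted p = 0.00135). With LPS the log2 fold change was 0.45 ± 0.15 (adjusted p = 0.0286), and this call was lost without Naïve replicate 1 or 3 or LPS replicate 1 or 3 (adjusted p 0.0705 to 0.104), in a fit of those groups alone, and with library size as the only scaling (0.24, adjusted p = 0.194, the highest of its alternatives, which began at 0.00727). With IFNγ it was -0.31 ± 0.15 (adjusted p = 0.237). αCD3 against LPS gave 0.39 ± 0.15 (adjusted p = 0.0906, and 0.0406 with library size as the only scaling, up to 0.285 over the alternatives).

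Slc7a11 (chr3:49892526-50443614, minus strand), the cystine carrier, set LPS apart. It was at 46.3, 72.5 and 70.6 CPM in Naïve, 53.5, 49.1 and 53.6 in αCD3, 57.8, 49.4 and 54.3 in IFNγ and 123, 109 and 114 in LPS. Every LPS library was above every other library. With LPS it rose by 0.87 ± 0.14 (log2) against Naïve (adjusted p = 6.18e-04), and αCD3 was below LPS at -1.15 ± 0.15 (adjusted p = 3.99e-04). With αCD3 it was -0.27 ± 0.14 against Naïve (adjusted p = 0.157) and with IFNγ -0.23 ± 0.15 (adjusted p = 0.372). Naïve replicate 1 was well below the other Naïve libraries, and without it the log2 fold changes were -0.46 with αCD3 (adjusted p = 0.00287) and -0.41 with IFNγ (adjusted p = 0.0146), both then called lower. Over all alternatives these adjusted p ran from 0.00287 to 0.439 and from 0.0146 to 0.718. The gene overlaps 2 annotated genes on its own strand, Gm37498 and Gm37692, so its counts are less certain. Of the 31-base stretches in its transcripts, 95.7% were found in no other gene's transcripts. That share was lower for Slc38a1, at 93.1%, and similar for Slc3a2, at 95.9%, so this caution holds for them too.

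Slc1a4 (chr11:20302180-20332713, minus strand), a carrier of serine, alanine and cysteine, was the least abundant member per kb in Naïve and had the largest rise with LPS. It was at 6.53, 6.88 and 7.51 CPM in Naïve, 9.87, 10.3 and 9.26 in αCD3, 6.96, 8.31 and 6.72 in IFNγ and 28.4, 23.2 and 23.3 in LPS. The LPS libraries stood above all others, and the αCD3 libraries were above the Naïve and IFNγ libraries. The log2 fold change was 1.84 ± 0.13 with LPS (adjusted p = 2.75e-06), 0.50 ± 0.13 with αCD3 (adjusted p = 0.0103) and 0.07 ± 0.13 with IFNγ (adjusted p = 0.776). It was lower with αCD3 than with LPS, at -1.34 ± 0.12 (adjusted p = 5.41e-05). Between αCD3 and IFNγ it was 0.42 ± 0.13 (adjusted p = 0.0238), and that call was lost without αCD3 replicate 2, IFNγ replicate 1 or IFNγ replicate 3 and in a fit of those groups alone (adjusted p 0.0637 to 0.0828).

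Slc7a11 and Slc1a4 were the members higher in LPS than in each of the other groups together with Slc7a5, and their promoter windows are shown because they hold a motif that the windows of the other matched members do not. The windows run from 250 bases before to 50 bases after the RefSeq start of the gene (GRCm38.p6), and 7 of the 10 members matched with 9 windows, none of them for Slc7a5, Slc1a5 or Slc38a1. The motifs searched on both strands were TGATGNAA, the amino acid response element bound by ATF4, the E-box CACGTG bound by MYC and MAX, and the AP-1 motif TGANTCA. Capitals mark TGATGNAA on either strand. The Slc7a11 window lies at chr3:50443564-50443863 and the Slc1a4 window at chr11:20332664-20332963, both read 5′ to 3′ on the minus strand.
Slc7a11: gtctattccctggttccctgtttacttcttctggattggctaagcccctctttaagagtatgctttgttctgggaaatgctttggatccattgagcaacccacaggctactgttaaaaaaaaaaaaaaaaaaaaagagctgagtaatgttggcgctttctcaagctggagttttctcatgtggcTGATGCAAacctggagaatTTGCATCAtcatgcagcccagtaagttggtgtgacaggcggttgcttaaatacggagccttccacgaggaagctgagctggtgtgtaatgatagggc
Slc1a4: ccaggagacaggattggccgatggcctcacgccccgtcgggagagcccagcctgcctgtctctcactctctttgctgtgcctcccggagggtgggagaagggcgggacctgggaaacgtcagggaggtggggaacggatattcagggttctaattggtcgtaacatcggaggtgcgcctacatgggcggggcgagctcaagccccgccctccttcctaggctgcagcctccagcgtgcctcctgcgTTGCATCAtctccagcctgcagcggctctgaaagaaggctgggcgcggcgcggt

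In Slc7a11 the motif began 66 bases before the start on the gene's strand and 47 bases before it on the opposite strand, and in Slc1a4 it began 4 bases before the start on the opposite strand. TGATGNAA was present in 3.97% of the 32851 windows of all genes, CACGTG in 7.15% and TGANTCA in 7.81%. None of the 9 member windows held CACGTG, and TGANTCA was found once, 123 bases before a start of Slc7a1. These are matches of letters, and binding was not measured.

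Slc1a5 (chr7:16781340-16798274, plus strand), the glutamine carrier ASCT2, rose with αCD3. It was at 292, 249.8 and 252 CPM in Naïve, 529, 474 and 459.9 in αCD3, 243, 208 and 201 in IFNγ and 346, 287 and 266 in LPS. The αCD3 libraries were all above the libraries of the other groups, and the LPS and Naïve libraries overlapped. It was higher with αCD3 than in Naïve by 0.88 ± 0.11 (log2, adjusted p = 1.92e-04) and than with LPS by 0.70 ± 0.11 (adjusted p = 0.00174). With LPS the log2 fold change against Naïve was 0.18 ± 0.11 (adjusted p = 0.214), which passed with the replicate block (0.17 ± 0.04, adjusted p = 0.00634) and turned to -0.03 with library size as the only scaling, the adjusted p running from 0.00634 to 0.864 over the alternatives. With IFNγ it was -0.29 ± 0.11 (adjusted p = 0.140), which passed with the block (adjusted p = 0.00117) and with library size as the only scaling (-0.42, adjusted p = 0.0450), and ran up to 0.358 over the alternatives.

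Slc38a1 (chr15:96571418-96642913, minus strand), the carrier SNAT1, followed Slc1a5 across the 12 libraries with a Pearson r of 0.941. It was at 177, 169.8 and 164 CPM in Naïve, 253, 230.3 and 238 in αCD3, 146, 127 and 127 in IFNγ and 167, 142 and 144 in LPS. The αCD3 libraries were above and the IFNγ libraries below every Naïve library. It rose with αCD3 by 0.50 ± 0.08 (log2, adjusted p = 8.91e-04) and was higher with αCD3 than with LPS by 0.67 ± 0.08 (adjusted p = 3.42e-04). With IFNγ it fell by 0.35 on the log2 scale (SE 0.08, adjusted p = 0.0188), a call lost without Naïve replicate 1 or 2 or IFNγ replicate 2 or 3 (adjusted p 0.0586 to 0.0831). With LPS the change was -0.17 ± 0.08 (adjusted p = 0.103), and it was called lower with the replicate block (-0.18 ± 0.05, adjusted p = 0.00647), with library size as the only scaling (-0.38, adjusted p = 0.00823) and without LPS replicate 1 (-0.25, adjusted p = 0.0248), the adjusted p running up to 0.288 over the alternatives. IFNγ against LPS gave -0.18 ± 0.08 (adjusted p = 0.110, 0.00765 with the block, 0.0430 without IFNγ replicate 1, and up to 0.416 over the alternatives).

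Slc38a2 (chr15:96687392-96699730, minus strand), the carrier SNAT2 and a gene known to rise when cells are short of amino acids, did not pass the test in any of the 6 comparisons. It was at 347, 249 and 265 CPM in Naïve, 317, 226 and 233 in αCD3, 391, 273 and 286 in IFNγ and 350.4, 257 and 235 in LPS. The 4 groups overlapped, and replicate 1 was the highest library of each. The log2 fold change against Naïve was -0.15 ± 0.20 with αCD3 (adjusted p = 0.593), 0.14 ± 0.20 with IFNγ (adjusted p = 0.724) and -0.03 ± 0.20 with LPS (adjusted p = 0.912). Between libraries of the same number, αCD3 was below Naïve in 3 of 3, with log2 ratios of -0.13, -0.14 and -0.19. IFNγ was above Naïve in 3 of 3, with log2 ratios of 0.17, 0.13 and 0.11. With the replicate block it was called lower in αCD3 than in Naïve (-0.15 ± 0.05, adjusted p = 0.0219) and than in IFNγ (-0.29 ± 0.05, adjusted p = 5.95e-04), and higher in IFNγ than in LPS (0.17 ± 0.05, adjusted p = 0.0113). These comparisons gave adjusted p values of 0.593, 0.296 and 0.529 without the block.

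Replicate 1 stood apart for other members as well. It was the highest library in 4 of 4 groups for Slc1a5, Slc38a1, Slc38a2 and Slc6a19, and in 0 of 4 for Slc7a5 and Slc3a2. Relative to the mean of replicates 2 and 3 it was 1.13 to 1.25 times as high for Slc1a5, 1.06 to 1.17 for Slc38a1, 1.35 to 1.42 for Slc38a2 and 1.43 to 3.06 for Slc6a19. Replicate 1 also had the lowest summed erythroid, NK and myeloid markers in each group, with erythroid sums of 338 to 574 CPM against 1299 to 4142 in replicates 2 and 3. Across the 12 libraries the r of Slc38a2 was -0.72 with the erythroid, -0.71 with the NK and -0.56 with the myeloid sum. The other members with replicate 1 highest did not share this. In the same order r was -0.09, -0.64 and 0.12 for Slc6a19, -0.44, 0.24 and -0.58 for Slc1a5, and -0.48, 0.10 and -0.46 for Slc38a1. The part of these cells in the levels was not tested.

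**Figure D4:**
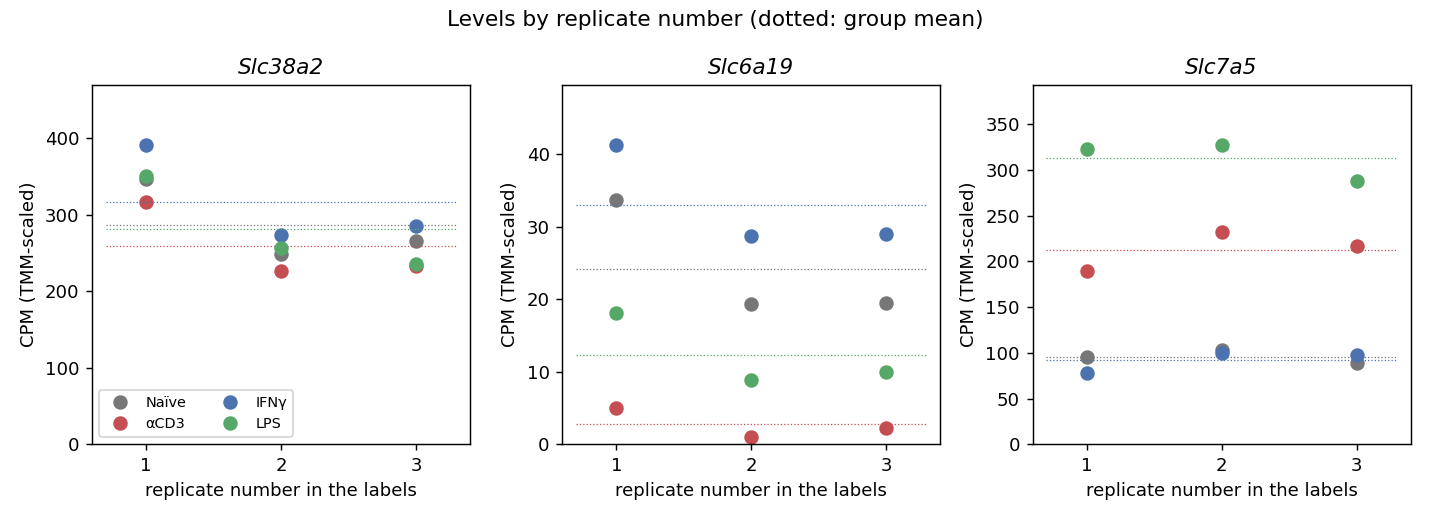
TMM-scaled CPM (vertical axis) of Slc38a2, Slc6a19 and Slc7a5 against the replicate number in the labels, with a color for each of the 4 groups and dotted lines at the group means. Replicate 1 of Slc38a2 lies at 317 to 391 CPM, above all libraries numbered 2 or 3 (226 to 286), and no such step is seen for Slc7a5.

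Slc6a19 (chr13:73679745-73704865, minus strand) was picked by its fall with αCD3, and its levels against Naïve and αCD3 are a description with no test. It was at 33.7, 19.3 and 19.5 CPM in Naïve, 4.97, 0.993 and 2.26 in αCD3, 41.3, 28.7 and 29.0 in IFNγ and 18.1, 8.91 and 9.97 in LPS. The order IFNγ, Naïve, LPS, αCD3 from high to low held within each of the 3 replicate numbers, and the pooled Naïve and IFNγ libraries overlapped. The log2 fold change against Naïve was -3.02 with αCD3, -0.99 with LPS and 0.44 with IFNγ, and without αCD3 replicate 1 the first was -3.89. IFNγ against LPS, which used neither group of the choice, gave 1.43 ± 0.43 (adjusted p = 0.0224) and was higher in 3 of 3 libraries by number. That call was lost without IFNγ replicate 1, LPS replicate 2 or LPS replicate 3 (adjusted p 0.0753 to 0.0852). An antisense gene, Slc6a19os, overlaps it.

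By the likeness of log2 CPM across the 12 libraries, the genes outside the members nearest to Slc7a5 were Nle1 (Pearson r 0.996), Supv3l1 (0.995), Fam206a (0.994), Atad3a (0.994) and Rrp9 (0.993). Those nearest to Slc6a19 were Saraf (0.994), Spata6 (0.985), Usp11 (0.984), Sun2 (0.981) and Crebbp (0.981). Among the members the lowest r was -0.877, between Slc7a6 and Slc6a19. With the summed B cell markers r ran from -0.87 for Slc3a2 to 0.53 for Slc6a19, and with the summed CD4 T cell markers from -0.85 for Slc1a4 to 0.31 for Slc6a19, with -0.84 for Slc3a2 and Slc7a1 and -0.82 for Slc7a5. With the summed CD8 T cell markers it ran from -0.77 for Slc7a11 to 0.72 for Slc38a1, with 0.60 for Slc1a5 and -0.13 for Slc7a5. The libraries share their groups, so these values describe the profiles alone.

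Further amino acid transporters were examined in the same way. Of 40 further carriers in the table, 20 had enough counts to be tested. With αCD3 1 rose and 4 fell, with IFNγ 1 fell, and with LPS 4 rose and 8 fell, with medians of -0.17, -0.12 and -0.30. The higher shares were below the 22.9%, 8.17% and 26.9% of all tested genes. The lower shares were near 15.7% with αCD3 and 4.27% with IFNγ, and above 22.3% with LPS. With the replicate block the number called with IFNγ was 1 higher and 3 lower, where 13.5% and 11.4% of all tested genes were called. Slc7a3, a carrier of cationic amino acids related to Slc7a1, went from 1.80 ± 0.209 CPM in Naïve to 12.9 ± 0.676 in LPS (log2 fold change 2.85 ± 0.20, adjusted p = 3.13e-06) and was at 1.69 ± 0.476 in αCD3. Slc6a9, the glycine carrier GLYT1, rose from 3.20 ± 1.06 to 12.6 ± 2.55 CPM with LPS (adjusted p = 1.11e-04) and to 5.97 ± 1.05 with αCD3 (adjusted p = 0.0172). Slc7a2, another arginine carrier, was at 4.86 ± 2.81 CPM in Naïve and 17.7 ± 10.6 in LPS (adjusted p = 0.0200). Slc43a2, a carrier of large neutral amino acids known as LAT4, fell from 75.0 ± 5.84 to 41.4 ± 9.99 CPM with αCD3 (adjusted p = 0.0285) and to 38.6 ± 17.5 with LPS (adjusted p = 0.0132).

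The genes that load amino acids onto tRNA moved together. Of 20 aminoacyl-tRNA synthetases, 19 rose with αCD3 and 19 with LPS, with median log2 fold changes of 0.71 and 1.01, and Qars did not pass in either, where 22.9% and 26.9% of all tested genes were called higher. With IFNγ 2 rose, Wars and Vars, and 4 with the replicate block, with a median of 0.01, against 8.17% of all tested genes called higher and 13.5% with the block, so these counts are near the background. Wars, the tryptophanyl synthetase, rose from 91.3 ± 11.6 CPM in Naïve to 647 ± 61.1 with IFNγ (log2 fold change 2.82 ± 0.26, adjusted p = 3.21e-04), to 210.5 ± 52.2 with αCD3 and to 282 ± 95.1 with LPS. Lars, which charges leucine, rose from 90.7 ± 3.68 to 145 ± 11.3 with αCD3 and 221 ± 17.7 with LPS. Rars went from 96.5 ± 6.75 to 194 ± 28.9 and 230.2 ± 29.8, and Tars from 87.9 ± 0.608 to 146 ± 10.8 and 208 ± 7.29.

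The amino acid response list, genes known to be driven by the transcription factor ATF4, had 21 tested members. With αCD3 9 rose and 1 fell (median 0.28), with LPS 15 rose and 1 fell (median 0.84), and with IFNγ 1 rose and 3 fell (median 0.01), or 4 and 3 with the replicate block. Beside these stand 22.9% higher and 15.7% lower of all tested genes with αCD3, 26.9% and 22.3% with LPS, and 8.17% and 4.27% with IFNγ (13.5% and 11.4% with the block). Psat1, an enzyme of serine synthesis, went from 39.8 ± 6.80 CPM in Naïve to 117 ± 18.6 with αCD3 (adjusted p = 5.46e-05) and 155 ± 10.1 with LPS (adjusted p = 8.48e-06). Asns, asparagine synthetase, rose from 6.89 ± 1.06 to 26.5 ± 3.83 with LPS (log2 fold change 1.95 ± 0.16, adjusted p = 5.83e-06), and with αCD3 it was at 8.38 ± 0.492 (adjusted p = 0.182). Shmt2, the mitochondrial serine hydroxymethyltransferase, rose from 107 ± 4.12 to 272 ± 26.5 with αCD3 and 362 ± 26.5 with LPS. Atf3, a transcription factor, was at 22.3 ± 9.68 in Naïve and 71.8 ± 35.8 in LPS (adjusted p = 0.00776).

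Of 22 tested enzymes that use amino acids, 10 rose and 1 fell with αCD3 (median 0.31), 4 rose and 2 fell with IFNγ (median 0.02, and 5 each with the block), and 13 rose and 2 fell with LPS (median 0.66). All tested genes gave 22.9% higher and 15.7% lower, 8.17% and 4.27% (13.5% and 11.4% with the block), and 26.9% and 22.3%. Bcat1, the cytosolic branched-chain aminotransferase, rose with αCD3 from 8.60 ± 0.541 CPM in Naïve to 42.6 ± 8.58 (log2 fold change 2.31 ± 0.20, adjusted p = 1.85e-05) and was at 16.0 ± 1.58 with LPS (adjusted p = 0.00389). Srm, spermidine synthase, rose from 63.4 ± 8.40 to 219 ± 53.4 with αCD3 and 295 ± 37.8 with LPS. Ido1, a tryptophan-degrading enzyme typical of myeloid cells, rose from 1.40 ± 0.196 to 8.88 ± 3.24 with IFNγ (adjusted p = 0.00331). Of the 14 myeloid markers, 1 rose and 5 fell with αCD3 (1 and 11 with the block), 1 rose and 1 fell with IFNγ (4 and 5 with the block) and 1 rose and 8 fell with LPS (2 and 11 with the block), where the block raised the share of all tested genes called lower from 15.7% to 24.2%, from 4.27% to 11.4% and from 22.3% to 28.4%, and their part in these values was not tested.

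Genes of the growth kinase complex mTORC1 and of amino acid sensing upstream of it made up a further list. Of 31 tested, 4 rose and 3 fell with αCD3 (6 and 5 with the block), 1 rose with IFNγ (1 and 2 fell with the block), and 5 rose and 9 fell with LPS, with medians of -0.06, -0.09 and 0.03. With αCD3 both shares were below the 22.9% higher and 15.7% lower of all tested genes. With IFNγ both were below 8.17% and 4.27%, and with the block below 13.5% and 11.4%. With LPS the higher share was below 26.9%, and only the lower share was above its background, 22.3%. Castor2, of the arginine sensor family, fell from 29.1 ± 1.38 CPM to 19.7 ± 2.04 with αCD3 (adjusted p = 0.00260) and 16.3 ± 2.42 with LPS (adjusted p = 1.62e-04). Castor1, an arginine sensor, fell from 12.6 ± 2.19 to 6.84 ± 1.91 with αCD3 (adjusted p = 0.0168) and was at 17.7 ± 4.70 with LPS (adjusted p = 0.112). Rragd, a Rag GTPase, fell from 24.8 ± 10.9 to 8.08 ± 1.66 with αCD3 (adjusted p = 0.0130), and Sesn1, of the sestrin family, from 64.9 ± 9.42 to 28.2 ± 8.80 with LPS (adjusted p = 0.00340).

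A last list joined transcription factors such as Myc and Max with enzymes such as Hmox1 and Nqo1. Of its 7 tested genes, 3 rose and 3 fell with αCD3, and 1 rose and 2 fell with IFNγ (3 and 2 with the block). With LPS 5 rose and 1 fell. The shares of all tested genes were 22.9% and 15.7%, 8.17% and 4.27% (13.5% and 11.4% with the block), and 26.9% and 22.3%. Myc, a transcription factor of cell growth, rose from 151 ± 7.50 CPM in Naïve to 508 ± 109 with αCD3 (log2 fold change 1.75 ± 0.15, adjusted p = 1.90e-05) and 597 ± 37.7 with LPS (1.98 ± 0.15, adjusted p = 5.12e-06), and was at 187 ± 26.8 with IFNγ (adjusted p = 0.234 without the block). By replicate number, Myc was at 157, 199 and 206 CPM in IFNγ and 144, 159 and 152 in Naïve. Max, its partner, rose from 132 ± 6.02 to 233 ± 50.5 with αCD3, 275 ± 49.9 with IFNγ and 241 ± 40.7 with LPS. Hmox1, heme oxygenase, fell from 128 ± 14.8 to 71.1 ± 13.0, 58.6 ± 7.03 and 91.0 ± 11.2 with αCD3, IFNγ and LPS. Nqo1, a quinone reductase of the NRF2 response, fell from 20.9 ± 3.37 to 13.4 ± 0.907 with αCD3 (adjusted p = 0.00783) and 11.9 ± 1.11 with IFNγ (adjusted p = 0.00688), and was at 16.8 ± 3.08 with LPS (adjusted p = 0.110).

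**Figure D5:**
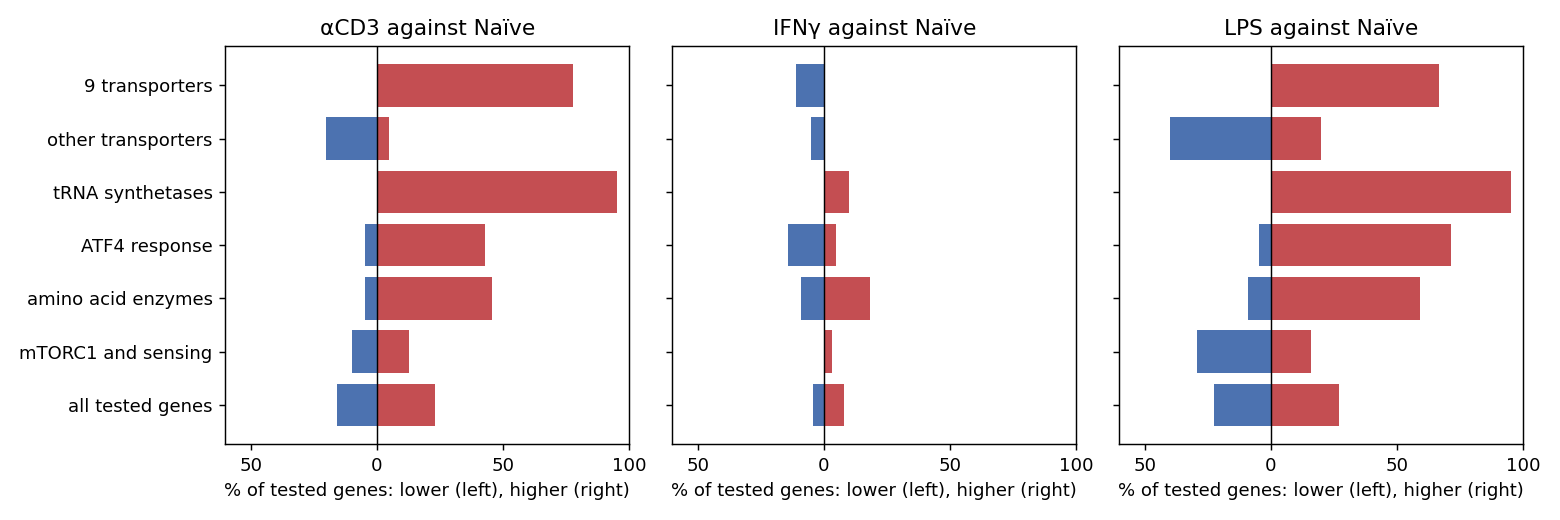
Percent of tested genes called higher (right, red) or lower (left, blue) than Naïve with αCD3, IFNγ and LPS, for the 9 transporters, 5 lists of related genes and all 12122 tested genes. The bars of the tRNA synthetases reach 19 of 20 genes with αCD3 and with LPS, those of the other transporters point both ways, and all bars are short with IFNγ.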

How the data were processed

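RNA was extracted from 12 cultures labelled CD8 T cells and made into mRNA libraries. Kallisto (version not given in the sources used here) was run by the authors against mouse mm10, and they deposited a table of estimated counts per gene symbol, not normalized. The submitters' processing notes also name DESeq2 1.24.0. Groups came from the labels.

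Counts were rounded to whole numbers and fitted with edgeR 4.0.16 in R 4.3.3 (TMM factors, filterByExpr, robust quasi-likelihood, all 12 libraries, group as the only term), with Benjamini-Hochberg adjustment over 12122 genes, in 6 comparisons. The test was tested on simulated data, which held no effect of the replicate number and so cannot show how such an effect changes the p-values. Levels are CPM, and correlations used log2 CPM with a prior count of 2. Ratios and the exact permutation test were computed in Python 3.11.15. Gene positions are from GENCODE (GRCm38), promoters from RefSeq. Reads shared between overlapping genes are uncertain.

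Alternatives were DESeq2 1.42.0, limma-voom (limma 3.58.1), DESeq2's size factors, library size alone, no count filter, the replicate number as a block, the compared groups alone and leaving out each library. Libraries of the same replicate number deviated from their group means together (r 0.117 to 0.401 in 18 pairs, against -0.354 to 0.102 in 36 pairs of different numbers). Deviations from a group mean cancel within the group, so negative r between different numbers is partly built in. Between numbers 2 and 3, r ran from -0.00349 to 0.102. The pairing by number comes from the data and not from the labels. It entered the block alternative only, and the main fit did not use it.

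All 10 members are named throughout. From each further list, up to 4 genes are named, those called against Naïve that had the largest absolute log2 fold change and averaged 5 CPM or more in 1 group. A gene that this rule selects is not reported here. Likeness names the 5 genes of highest r. The members and lists were chosen with earlier results of these data known.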

Additional observations from a re-analysis of the deposited data

How the results depend on the processing

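Over 19 alternatives, 664 of 715 tested values of single transporters kept their direction and their side of the threshold, 17 no longer passed, 19 newly passed and 15 changed sign, none of which passed in any setting where it did so (lowest adjusted p 0.456). The number of the 9 transporters called with IFNγ against Naïve, 1, was 2 with DESeq2, 2 with limma-voom, 2 with library size alone and 3 with the replicate block. Leaving out 1 library at a time gave 0 to 1, with 0 without Naïve replicate 2, IFNγ replicate 2 or IFNγ replicate 3. The number of all genes called moved too, from 1508 to 850, 787 and 918 without those libraries, to 2279 with library size alone and to 3020 with the block. In the other comparisons, leaving out 1 library at a time gave 7 to 8 for αCD3 and 5 to 6 for LPS against Naïve. It gave 6 to 7 for αCD3 against IFNγ, 5 to 6 for αCD3 against LPS and 7 to 8 for IFNγ against LPS. The replicate block gave 7 higher and 1 lower for LPS against Naïve and for αCD3 against IFNγ. It gave 2 higher and 4 lower for αCD3 against LPS, and 1 higher and 8 lower for IFNγ against LPS. With the replicate block the calls named in the report changed, and no other call among the transporters did.

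Library size alone moved the median log2 fold change of all genes against Naïve to -0.13 with αCD3, -0.16 with IFNγ and -0.22 with LPS. Among called genes, the part that was higher went from 59.3% to 44.0%, from 65.6% to 31.4% and from 54.7% to 32.8%, and for αCD3 against LPS from 49.7% to 68.8%. With LPS, 5 transporters were then called higher and 1 lower. It changed the sign of Slc1a4 (-0.0661) and Slc7a1 (-0.102) with IFNγ, Slc1a5 with LPS (-0.0289) and Slc7a1 in αCD3 against LPS (0.0253). Leaving out 1 library at a time, the log2 fold change of Slc38a2 ran from -0.323 to 0.00955 with αCD3, from -0.0487 to 0.301 with IFNγ and from -0.221 to 0.127 with LPS (0.0287 without LPS replicate 2, 0.0819 without LPS replicate 3) against Naïve, from -0.291 to 0.0720 in αCD3 against LPS and from -0.000694 to 0.363 in IFNγ against LPS. With IFNγ, Slc7a5 ran from -0.129 to 0.0325 and Slc1a4 from -0.0259 to 0.132. Slc7a11 ran from -0.105 to 0.0137 in αCD3 against IFNγ, and Slc7a1 from -0.168 to 0.0232 in αCD3 against LPS. Without αCD3 replicate 1, Slc6a19 moved to -3.89, -4.33 and -2.90 in αCD3 against Naïve, IFNγ and LPS. The causes were not tested. Slc6a19 was at 0.993 and 2.26 CPM in αCD3 replicates 2 and 3, and 3 libraries a group limit what could be called.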
